A study of Homo sapiens with 12 samples.

Results

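MDA-MB-231 is an established human triple-negative breast cancer cell line of mesenchymal shape, and the comparison described here set its cells labelled ERK5-ko against its cells labelled MEK5DD. The members were chosen by these labels, which gave 4 of the 12 RNA libraries of the series, 2 in each group. ERK5-ko cells were a surviving CRISPR/Cas9 clone edited in MAPK7, the gene of the kinase ERK5, and were labelled as passages 7 and 8. The study states that they were made from MDA-MB-231 cells of a later passage than the parental controls below. MEK5DD cells carried MEK5, the upstream activator of ERK5, in a permanently active version, and were sequenced at passages 10 and 11. How the MEK5DD cells were made, and whether they were a clone, is not given in the sources used here. Unedited parental MDA-MB-231 cells at passages 29 and 30 (2 libraries) and the same groups of Hs-578T, a second triple-negative line, gave the other libraries. The 2 libraries of a group came from consecutive passages of a culture, so each p value measures the spread between passages, and the edit, the clone and the culture cannot be told apart.

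MEK5 and ERK5 form the last steps of a kinase cascade that answers growth factors and cellular stress. Active ERK5 enters the nucleus and acts on transcription factors of the MEF2 and KLF families. In breast cancer cells the cascade is known for its ties to proliferation, to cell motility and to the epithelial-to-mesenchymal transition (EMT), in which cells lose junctions and keratins and gain vimentin and matrix-degrading enzymes.

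Levels are given as RPKM, the reads on a gene scaled to the length of its gene model and to the total reads of the library. The 4 libraries held between 22570083 and 27734404 reads. On the log2 scale over the 13737 protein-coding genes tested, the ERK5-ko libraries correlated with each other at 0.997 and the MEK5DD libraries at 0.999, while libraries of different groups correlated at 0.943 to 0.945 and each of the 4 correlated with Hs-578T libraries at 0.772 to 0.804. CD44 (RPKM 1043 to 1339) and VIM (1598 to 3492) were abundant, while ESR1 and PGR lay at or under 0.12 and CDH1 at or under 0.64. ERBB2 (36.92 to 56.85) and EPCAM (7.077 to 25.75), which were listed as low in such a line, were expressed in all 4 libraries. Of 9 markers of blood, endothelial and fat cells, 2 or 3 were at 0 in each library and CD68, a lysosomal protein of many cell types, held most of their summed RPKM, which was 54.5 and 66.8 in ERK5-ko and 109 and 108 in MEK5DD libraries. The part of other cells in the results was not tested.

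MAP2K5 (ENSG00000137764.19, from 67542709 to 67807123 on chromosome 15 in GRCh38), which encodes MEK5, had an RPKM of 15.6 and 14.8 in the ERK5-ko libraries and of 188 and 184 in the MEK5DD libraries. The groups were thus 12.2-fold apart, with the 2 MEK5DD libraries far above the 12.9 and 13.6 of the parental controls (log2 difference −3.57, standard error 0.10, adjusted p = 3.1e-10, limma). MAPK7 (ENSG00000166484.19, from 19377721 to 19383544 on chromosome 17) had 16.3 and 17.8 in ERK5-ko and 14.8 and 15.8 in MEK5DD libraries. Its ERK5-ko values were not below those of MEK5DD cells (log2 difference 0.15, standard error 0.10, adjusted p = 0.233). RPKM over the whole gene does not show whether its reads carry the edit, so MAPK7 RNA checks no label, and directions below refer to the labels. The study reports strong loss of ERK5 protein in these cells by Western blot, and a check of its clones by qRT-PCR and Western blot. Protein is not part of the data used here.

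Of the 13737 genes tested, 1164 (8.47%) were higher and 841 (6.12%) were lower in ERK5-ko than in MEK5DD cells. A gene was called where its log2(RPKM + 0.5) differed at an adjusted p under 0.05 by limma and by at least 2-fold, and all adjusted p values below come from this fit. Without the fold, 7552 genes (55%) passed, 3717 higher and 3835 lower, with a median log2 difference over all genes of −0.02. Replicates of the 2 groups did not overlap for any of the 2005 called genes, which the call rule itself favours, so this adds no support to the calls. Folds of single genes below are ratios of mean RPKM. By that measure, with genes at or under 3 reads in both libraries of a group set to 3 reads, 488 higher and 293 lower genes differed by at least 4-fold, 246 and 158 by at least 8-fold, and 53 and 42 by at least 32-fold.

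**Figure D1:**
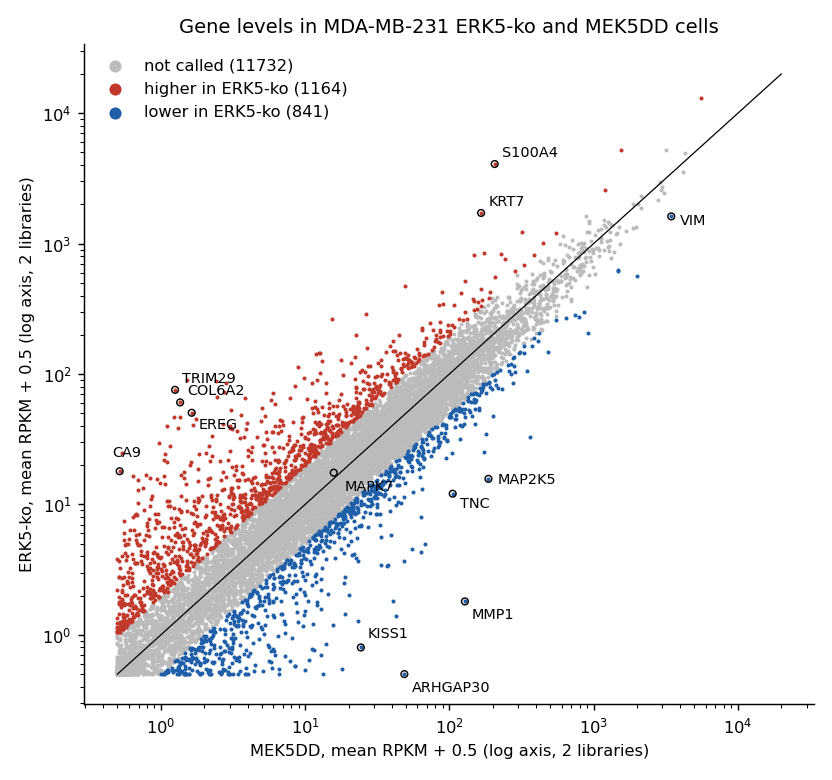
Mean RPKM + 0.5 of each of the 13737 genes in the 2 MEK5DD libraries (x, log axis) and in the 2 ERK5-ko libraries (y, log axis), with the line of equal level. Called genes are coloured, 1164 above and 841 below the line; MAP2K5 lies far below it and MAPK7 close to it.

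The genes highest in ERK5-ko relative to MEK5DD cells were nearly silent in MEK5DD cells. TRIM29, a tripartite motif protein of stratified epithelia, had 75.3 and 75.0 in ERK5-ko and 0.672 and 0.838 in MEK5DD libraries. The gap was 99.6-fold (log2 difference 5.92, standard error 0.14, adjusted p = 9.54e-11), and the parental controls, both at 27.6, lay between. CA12, a membrane carbonic anhydrase, had 83.9 and 96.3 against 0.84 and 1.2. CA9, the hypoxia-regulated carbonic anhydrase, had 16.8 and 18.2 against 0 and 0.0362, at least 140-fold when MEK5DD was set to 3 reads, the floor used here for genes at or under 3 reads in both libraries of a group. Both carbonic anhydrases were therefore expressed in ERK5-ko cells and close to absent in MEK5DD cells. THBS2, a matricellular thrombospondin, had 27.1 and 21.9 against 0.037 and 0.0321, at least 441-fold. COL6A2, a chain of collagen VI, had 59.6 and 60.6 against 0.911 and 0.808, and the parental controls (54.1 and 54.5) were near ERK5-ko. CLDN2, a pore-forming claudin of tight junctions, had 47.0 and 46.0 against 0.705 and 0.779. EREG, the EGF receptor ligand epiregulin, had 49.2 and 50.8 against 1.19 and 1.08. CEMIP (hyaluronan binding and breakdown), ULK2 (an autophagy kinase), SLC12A7 (a potassium-chloride cotransporter), PTGFRN (a prostaglandin receptor regulator) and CDH11 (cadherin-11) completed the 12 leading genes, and were 36.6-fold (CDH11) to 64.5-fold (ULK2) higher.

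The genes lowest in ERK5-ko relative to MEK5DD cells were, for the most part, nearly silent in ERK5-ko cells. ARHGAP30, a GTPase-activating protein, had 0 in both ERK5-ko libraries and 47.7 and 48.8 in MEK5DD libraries, a difference of at least 1030-fold against 3 reads. It was also low in the parental controls (0.0284 and 0.0885). MMP1, the interstitial collagenase, had 1.2 and 1.41 in ERK5-ko and 132 and 124 in MEK5DD libraries, 97.9-fold lower (log2 difference −6.15, standard error 0.16, adjusted p = 1.88e-10). The parental controls held 1.47 and 1.23, so MMP1 was high in MEK5DD cells alone among the MDA-MB-231 groups. KISS1, the gene of the kisspeptins, had 0.389 and 0.211 against 22.2 and 25.5, and here the parental controls (13.3 and 15.6) were on the MEK5DD side. DAPK1, a death-associated kinase, had 0 in both ERK5-ko libraries against 13.1 and 12.5, at least 236-fold lower. SSX1, a cancer-testis antigen, had 0.103 and 0 against 18.0 and 17.1, at least 170-fold lower. AIF1L (actin binding), APBB1IP (the RAP1 effector RIAM), CDYL2 (a chromodomain protein), MSI2 (an RNA-binding protein), CNTN1 (contactin-1), IRX5 (a homeodomain factor) and ROBO1 (a SLIT receptor) completed the 12. CDYL2 was at least 164-fold lower against 3 reads, and the other 6 were 29.6-fold (MSI2) to 71.5-fold (IRX5) lower.

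**Figure D2:**
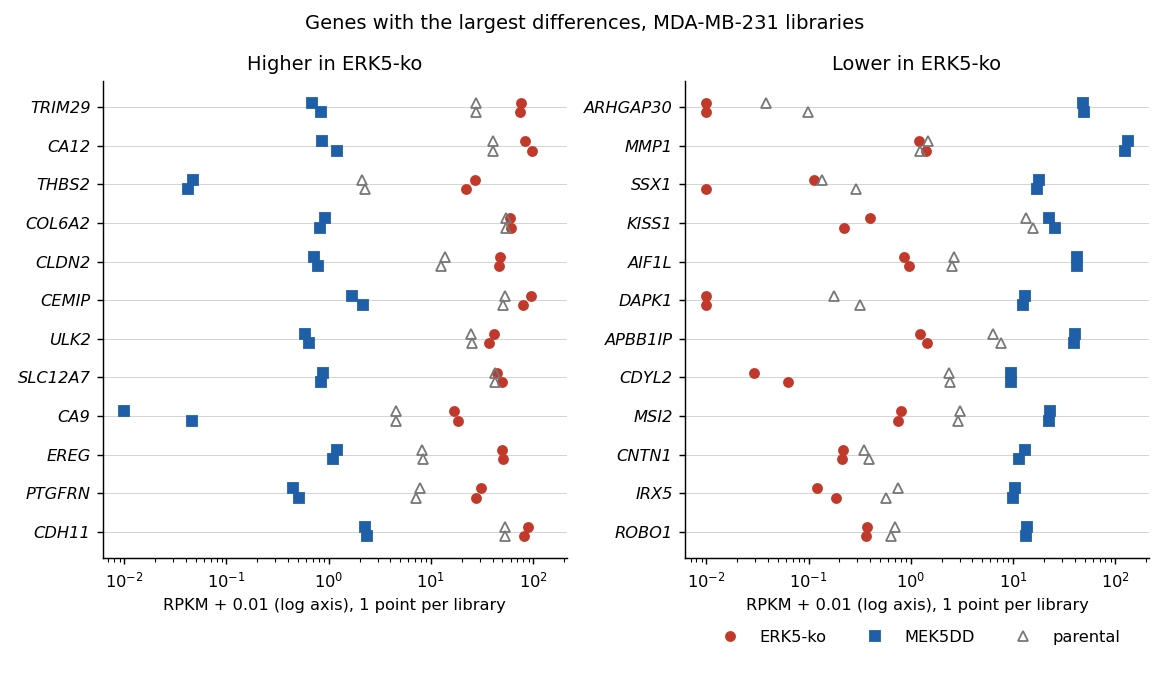
RPKM + 0.01 (log axis) of the 12 genes highest and the 12 lowest in ERK5-ko relative to MEK5DD cells, 1 point per library, with the parental controls as open triangles. Circles and squares never meet in a row, since genes were chosen for the figure only where replicates of the groups did not overlap. Parental controls lie with ERK5-ko for COL6A2 and MMP1 and nearer MEK5DD for KISS1.

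Genes at the floor in one group were counted on the recovered reads. Of the 1164 higher genes, 59 were at or under 3 reads in both MEK5DD libraries, and 58 of these 59 were above 3 reads in at least one parental library. Of the 841 lower genes, 69 were at or under 3 reads in both ERK5-ko libraries, and 27 of them were so in the parental controls too. A gene seen in ERK5-ko but not in MEK5DD cells was therefore seen in parental cells in all but 1 case, while genes seen in MEK5DD but not in ERK5-ko cells were split between those seen and those not seen in parental cells. TENM4 (teneurin-4) was at 0 in both ERK5-ko and both parental libraries and had 1.88 and 1.6 in MEK5DD libraries. WNT5A, a secreted Wnt ligand, was at 0 in ERK5-ko, at 0.191 and 0.0509 in parental and at 2.53 and 2.42 in MEK5DD libraries, at least 39.4-fold lower in ERK5-ko.

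Promoter windows of 250 bases before to 50 bases after the RefSeq start (GRCh38.p14) were searched on both strands for 4 motifs: TGANTCA (AP-1), GAAA followed after any 2 bases by GAAA (the interferon element), GGAATG (TEAD) and CTA followed after any 4 bases by TAG (MEF2). Windows were found for 10943 of the 13737 tested genes (79.7%), among them 18 of the 24 leading genes, so the shares describe the matched genes only. The AP-1 letters were in 6.7% of the 881 windows of higher genes, 6.17% of the 648 windows of lower genes and 4.9% of all. The MEF2 letters were in 2.16%, 2.78% and 1.92%, the interferon letters in 3.75%, 2.31% and 2.87%, and the TEAD letters in 11.2%, 10.5% and 11.1%. None of the 4 motifs was therefore common in either group of genes, and a match is a description of the letters, not of a bound site. Of the 18 leading windows, 5 held a match, and they are shown 5′ to 3′ on the strand of the gene with the matches in capitals. CLDN2 (chrX:106899914-106900213, plus strand) and CA9 (chr9:35673678-35673977, plus strand) hold an AP-1 match that begins at −60 and −77 from the start. THBS2 (chr6:169253797-169254096, minus strand) holds a pair of TEAD matches in opposite orientation, the first of which begins at −103. EREG (chr4:74364895-74365194, plus strand) and CNTN1 (chr12:40827934-40828233, plus strand), the latter the only lower gene of the 5, hold a TEAD match that begins at −175 and −130. The CNTN1 window lies inside the gene model used for RPKM, which starts at 40692442.
CLDN2: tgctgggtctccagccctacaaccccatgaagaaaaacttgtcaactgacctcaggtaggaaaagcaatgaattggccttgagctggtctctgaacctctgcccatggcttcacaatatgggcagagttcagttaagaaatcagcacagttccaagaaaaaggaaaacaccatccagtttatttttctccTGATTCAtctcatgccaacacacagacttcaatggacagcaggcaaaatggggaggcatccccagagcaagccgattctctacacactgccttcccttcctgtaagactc
CA9: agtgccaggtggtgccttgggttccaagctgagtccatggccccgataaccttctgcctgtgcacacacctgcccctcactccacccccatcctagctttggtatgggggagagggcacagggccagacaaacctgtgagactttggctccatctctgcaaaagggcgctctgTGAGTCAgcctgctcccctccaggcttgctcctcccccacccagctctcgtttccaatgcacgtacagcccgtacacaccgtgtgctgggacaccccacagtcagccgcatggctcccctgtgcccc
THBS2: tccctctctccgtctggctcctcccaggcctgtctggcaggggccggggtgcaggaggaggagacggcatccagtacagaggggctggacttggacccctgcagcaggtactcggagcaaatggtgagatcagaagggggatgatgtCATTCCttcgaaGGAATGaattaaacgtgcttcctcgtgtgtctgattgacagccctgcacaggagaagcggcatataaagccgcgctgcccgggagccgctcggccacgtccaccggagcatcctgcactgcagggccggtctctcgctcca
EREG: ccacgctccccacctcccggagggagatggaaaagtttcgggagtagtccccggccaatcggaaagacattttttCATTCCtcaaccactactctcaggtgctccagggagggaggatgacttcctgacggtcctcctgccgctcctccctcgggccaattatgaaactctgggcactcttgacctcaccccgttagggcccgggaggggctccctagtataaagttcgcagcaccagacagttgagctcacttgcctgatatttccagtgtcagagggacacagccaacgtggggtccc
CNTN1: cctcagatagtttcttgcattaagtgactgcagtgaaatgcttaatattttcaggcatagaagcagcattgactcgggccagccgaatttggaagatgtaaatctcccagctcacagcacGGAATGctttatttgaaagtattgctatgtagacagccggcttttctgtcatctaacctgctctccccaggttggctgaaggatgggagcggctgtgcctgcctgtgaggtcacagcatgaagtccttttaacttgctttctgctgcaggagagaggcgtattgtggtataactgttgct

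The most abundant called genes were led by small calcium- and actin-binding proteins. S100A6, a calcium-binding protein, had 12309 and 13725 in ERK5-ko and 5545 and 5500 in MEK5DD libraries, 2.36-fold higher. With quantile normalization this difference was lost (adjusted p = 1), since that step sets the most abundant gene of each library to the same value. S100A4, its relative tied to metastasis and mesenchymal cells, had 3895 and 4262 against 208 and 204, 19.8-fold higher, and parental controls (2874 and 2747) were near ERK5-ko. TMSB4X, which binds actin monomers, was 3.33-fold higher, KRT7 10.4-fold and CTSD, the lysosomal protease cathepsin D whose exons share bases with other annotated genes, 2.15-fold. VIM, the intermediate filament vimentin, had 1637 and 1598 in ERK5-ko and 3418 and 3492 in MEK5DD libraries. It was 2.14-fold lower in ERK5-ko, and the parental controls had 1610 and 1751. An antisense RNA shares exon bases with it on the other strand. HSP90AA1 (the inducible HSP90 chaperone), HMGA1 (a chromatin protein), MSN (moesin, which ties actin to the membrane) and PSMD2 (a proteasome subunit) were 3.54-fold, 2.35-fold, 2.38-fold and 2.88-fold lower.

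Junction and keratin genes were higher in ERK5-ko cells where they differed by 2-fold. Of 32 tested genes of epithelial junctions and identity, 11 were higher and none was lower (17 and 5 without the fold), and their median log2 difference was 0.47 against −0.02 over all genes. JUP (plakoglobin, of desmosomes and adherens junctions) had 143 and 144 against 12 and 12.3, and PPL (periplakin) 43.2 and 33.0 against 2.57 and 2.45. ESRP2, a splicing regulator of epithelial cells, was 10.9-fold and CLDN4 6.21-fold higher. ELF3, an epithelial ETS factor, was at least 27.3-fold higher and the adhesion molecule EPCAM 3.37-fold. CDH1, the gene of E-cadherin, was among the 11 at a low level: 0.64 and 0.579 in ERK5-ko, 0.64 and 0.65 in parental and 0.0376 and 0 in MEK5DD libraries, at least 10.8-fold higher in ERK5-ko than in MEK5DD cells. So E-cadherin RNA was low in all 3 groups and lowest in MEK5DD cells. Of 12 tested keratins, 5 were higher and none was lower (median 0.57), KRT7 (1761 and 1676 against 158 and 173), KRT81, KRT19, KRT80 and KRT18, the last by 2.08-fold. Parental means were nearer ERK5-ko than MEK5DD, or beyond ERK5-ko, for all 11 called epithelial genes and 4 of the 5 called keratins. In bulk RNA, a change in every cell and a change in the share of cells that express a gene cannot be told apart.

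Of 14 EMT factors and mesenchymal genes tested, 2 were higher (CDH11 and S100A4, given above) and 2 lower (VIM and ZEB1), with 3 and 6 without the fold and a median of −0.08. Called members made up 28.6% of the list, beside 8.47% higher and 6.12% lower over all genes. ZEB1, a repressor of E-cadherin, had 22.6 and 19.1 against 43.2 and 41.6. FN1, the gene of fibronectin, had 49.5 and 36.8 against 74.1 and 77.6, short of 2-fold (log2 difference −0.82, adjusted p = 0.0106), and its adjusted p was 0.106 without the second ERK5-ko library and 0.0584 without the second MEK5DD library. SNAI1, another repressor of E-cadherin, had 0.184 and 0.0238 against 0.494 and 0.707, and was lower without reaching 2-fold on the log2(RPKM + 0.5) scale (log2 difference −0.87, standard error 0.15, adjusted p = 0.000504). The ratio of its mean RPKM values was 5.77. Of 13 breast cancer stem cell markers, 5 were higher, among them ABCG2 (a drug efflux pump, 9.66-fold) and ALDH1A3 (a retinal dehydrogenase, 6.51-fold), and CD24 alone was lower. PROCR, the protein C receptor, and the integrin ITGB3 were 3.28-fold and 3.77-fold higher. ITGB3 shares 2266 of its 4394 exon bases with another annotated gene on its strand, so its reads are uncertain. CD44 differed by a fold under 2.

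Matrix genes were called in both directions. Of 13 fibrillar and fibril-associated collagens, 3 were higher and none lower, COL5A1 (175 and 152 against 38.5 and 38.0), COL16A1 and COL1A2. The call of COL1A2 rested on low values (1.98 and 1.28 against 0.116 and 1.11) and was lost without the first ERK5-ko library (adjusted p = 0.116) or the first MEK5DD library (adjusted p = 0.113). Of 16 basement membrane, beaded and transmembrane collagens, 4 were higher and 3 lower. COL6A1 (113 and 112 against 8.41 and 8.42) was 13.4-fold higher beside COL6A2, while COL6A3, the third common chain of collagen VI, was 3.82-fold lower (1.52 and 1.17 against 4.89 and 5.37). The chains of 1 collagen thus moved in opposite directions, with COL6A1 and COL6A2 neighbours on chromosome 21 and COL6A3 on chromosome 2. COL18A1, the source of endostatin, was 4.21-fold higher and COL8A1, a short-chain vascular collagen, 5.17-fold lower (38.1 and 30.7 against 180 and 176).

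Among 13 laminin chains and basement membrane partners, 3 were higher and 1 lower. LAMA5, the alpha chain of many epithelial laminins, had 124 and 121 against 19.5 and 21.1, and AGRN (agrin) and HSPG2 (perlecan) were 4.04-fold and 2.18-fold higher. LAMA4, an endothelial and mesenchymal chain, had 0.294 and 0.244 against 11.9 and 10.2, 41.2-fold lower. Of 30 matricellular and elastic fibre genes, 7 were higher, among them THBS2, LTBP3 (a carrier of latent TGF-beta, 16.6-fold) and VTN (vitronectin, at least 28.8-fold), and 8 were lower. VTN shares exon bases with another annotated gene on its strand. TNC (tenascin-C) was among the lower genes, with 12.3 and 10.9 against 105 and 105. CTGF, a matricellular target of YAP, was 2.58-fold lower. Of 16 proteoglycans, 5 were higher, among them GPC1 (glypican-1, 6.37-fold) and SDC3 (syndecan-3, 3.69-fold), and SRGN (serglycin) was 15.1-fold lower.

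Enzymes that cut or crosslink the matrix also went both ways. Of 16 metalloproteinases and inhibitors, 5 were higher and 3 lower. MMP24, a membrane-type enzyme, had 11 and 8.48 against 0.179 and 0.213, and TIMP3, a matrix-bound inhibitor, 104 and 103 against 24.0 and 23.2. On the lower side MMP1 was joined by MMP3, stromelysin-1 (14.8-fold), and MMP14. Of 15 lysyl oxidases and collagen modifying enzymes, LOXL4 (9.81-fold), LOXL2 (2.67-fold) and the procollagen protease BMP1 (2.43-fold) were higher and LOX (2.16-fold) lower. SERPINE2, an inhibitor of thrombin and plasminogen activators, was 12.5-fold lower and PLAT, the tissue plasminogen activator, 2.23-fold higher, the 2 called among 9 genes of that system. Of 18 integrin subunits, ITGB3 and ITGAV, the chains of the vitronectin receptor, were higher and the leukocyte chain ITGB2 (0.205 and 0.212 against 3.52 and 3.03) lower. ITGB3 carries the exon overlap given above. Of 22 contractile genes, MYLK (myosin light chain kinase) and MYL9 were higher and TAGLN (transgelin, 9.07-fold) and ACTN1 (alpha-actinin-1, 2.62-fold) lower. Called were 16.7% of the integrin, 18.2% of the contractile, 22.2% of the plasminogen activator and 26.7% of the lysyl oxidase list. Over all genes, 8.47% were called higher and 6.12% lower.

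The EGF receptor family and its ligands formed the list with the largest share of higher members. Of 11 tested, 6 were higher and none was lower, with a median log2 difference of 1.41. Besides EREG, AREG (amphiregulin) had 194 and 202 in ERK5-ko, 64.0 and 63.9 in parental and 21.3 and 22.9 in MEK5DD libraries. ERK5-ko was thus above parental and parental above MEK5DD for both neighbouring ligand genes of chromosome 4. BTC (betacellulin) was 3.43-fold, TGFA 2.68-fold and the receptor ERBB3 3.94-fold higher, and NRG2 was the sixth. Of 24 PDGF, FGF, VEGF and angiogenic factors, 6 were higher, among them PDGFB (9.3-fold) and its receptor PDGFRB (5.79-fold), and 5 lower, led by the ligands FGF1 (35.5-fold) and FGF5 (12.4-fold).

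**Figure D3:**
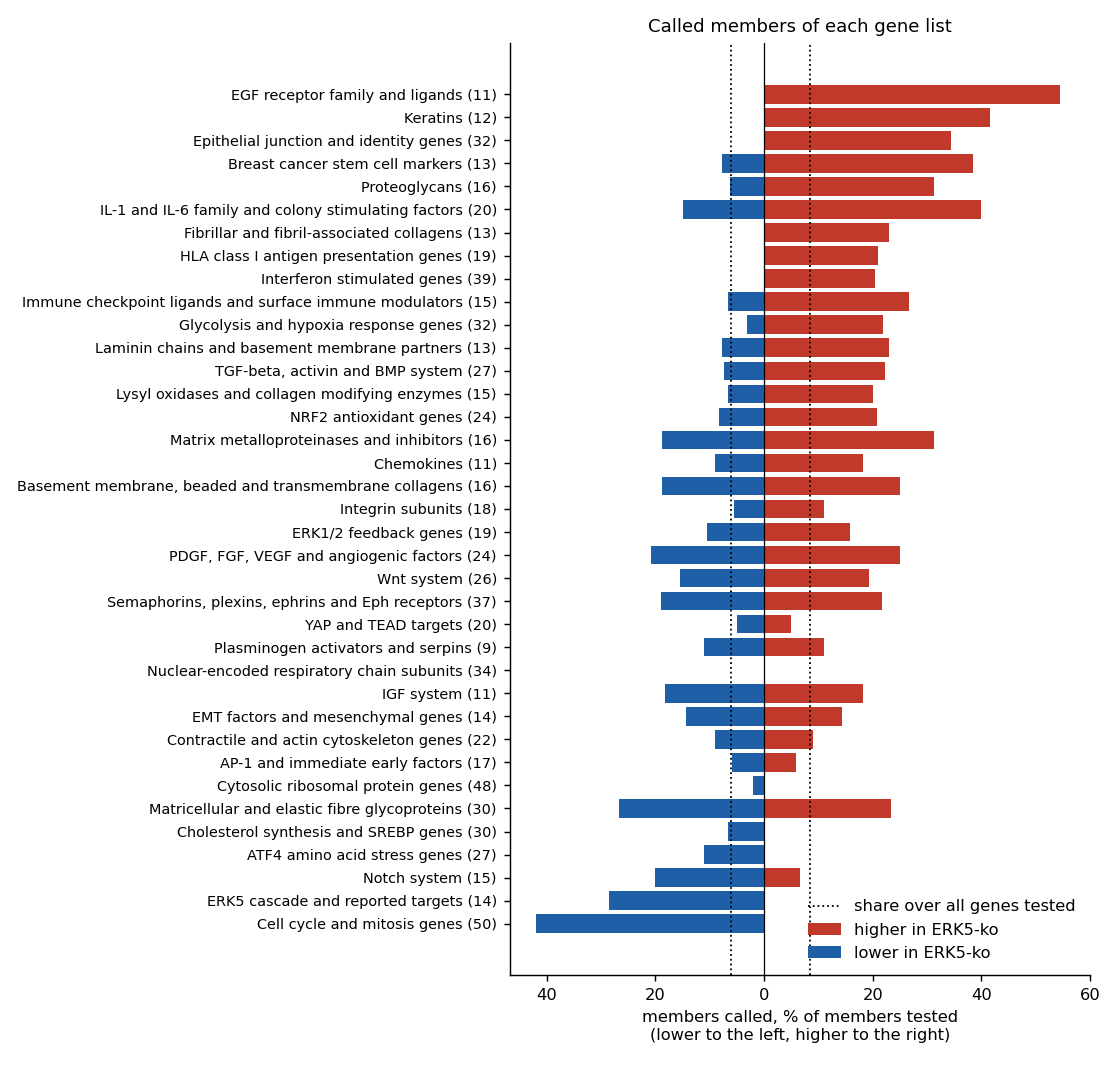
Share of the tested members of each gene list (number tested in parentheses) called higher (right) and lower (left) in ERK5-ko than MEK5DD cells, in percent. Dotted lines mark the shares over all genes, 8.47% and 6.12%. The EGF receptor family, keratins and epithelial genes extend to the right alone, as do the interferon, HLA and fibrillar collagen lists. Cell cycle genes and the list of the ERK5 cascade and its reported targets, which holds MAP2K5 itself, extend to the left alone. The ATF4, cholesterol and ribosomal protein lists do so too.

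Of 20 genes of the IL-1 and IL-6 families and colony stimulating factors, 8 were higher and 3 lower (median 0.70). IL32, an inflammatory cytokine, had 32.5 and 42.4 against 2.53 and 2.71, IL6 25.9 and 30.2 against 4.77 and 4.47, and CSF1, the macrophage growth factor, 107 and 124 against 27.2 and 27.7. IL11 and IL24 were 8.36-fold and 4.3-fold lower, and IL7 was the third lower gene. IL11 had 6.32 and 7.25 in the parental controls, near the 8.63 and 7.96 of MEK5DD and above the 1.21 and 0.779 of ERK5-ko. Of 11 chemokines, CX3CL1 (30.4-fold) and CXCL16 (16.3-fold), which are made as membrane-bound proteins, were higher and CXCL3 (3.71-fold) lower. Of 15 immune checkpoint and surface genes, 4 were higher, among them the death ligand TNFSF10 (3.49-fold) and the NKG2D ligand ULBP2 (3.17-fold), and PDCD1LG2, which encodes PD-L2, was 2.72-fold lower.

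Interferon-stimulated and antigen presentation genes were higher where called. Of 39 interferon-stimulated genes, 8 were higher and none lower, with 20 and 6 without the fold and a median of 0.44. IFI27 had 131 and 150 against 12.6 and 10.1, and OAS1, an RNA sensor, 4.59 and 4.47 against 0.183 and 0.19. MX2, IFITM1 (whose exons share bases with IFITM2) and RSAD2 were 14.1-fold, 3.72-fold and 4.58-fold higher. RSAD2 was higher still in the parental controls (11.4 and 10.5), and so ERK5-ko lay between them and MEK5DD. Of 19 HLA class I genes, 4 were higher and none lower, among them HLA-B (1130 and 1327 against 316 and 325) and B2M, the shared light chain. Reads of the HLA genes are shared between near-identical copies, and their values carry that uncertainty.

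Pathways of development were mixed. Of 27 genes of the TGF-beta, activin and BMP system, 6 were higher, among them the ligands BMP4 (407 and 442 against 86.5 and 90.2), GDF15 (5.15-fold) and TGFB2 (2.8-fold) and the activin trap FST (3.53-fold). The receptor TGFBR2 was 3.02-fold lower (23.5 and 20.3 against 67.5 and 64.8), and the ligand BMP2 was the other lower gene. Of 26 Wnt genes, 5 were higher and 4 lower. The ligand WNT7B (35.3 and 39.5 against 3.54 and 3.28) and RNF43, a ubiquitin ligase that removes Wnt receptors and whose exons share bases with neighbours, were 11-fold and 22.5-fold higher. LEF1, a transcription factor of the pathway, was 8.97-fold and the receptor FZD8 37.6-fold lower beside WNT5A. Of 15 Notch genes, MFNG, a glycosyltransferase of the receptors, was 8.53-fold higher, and 3 targets (HES1, HEY1 and HEYL) were lower, HES1 at 2.27 and 1.95 against 8.37 and 8.27. Called Notch genes made up 26.7% of their list, beside 8.47% higher and 6.12% lower over all genes. Of 11 genes of the IGF system, the binding proteins IGFBP1 (8.33-fold) and IGFBP3 (6.93-fold) were lower and IGFBP6 (2.53-fold) and the scavenging receptor IGF2R (2.38-fold) higher. Of 37 semaphorins, plexins, ephrins and Eph receptors, 8 were higher, led by SEMA3B (20.5-fold) and PLXND1 (7.98-fold), and 7 lower, among them PLXNA2 (9.04-fold) and PLXDC2 (at least 69.7-fold against 3 reads). Of 20 YAP and TEAD targets, F3 (tissue factor, 5.53-fold) was higher and CTGF lower, 10% of the list beside 8.47% higher and 6.12% lower over all genes.

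Of 14 genes of the cascade and its reported targets, 4 were lower and none higher (8 and 1 without the fold), and their median was −0.60. MAP2K5, the gene of the kinase that MEK5DD cells were made to carry, is 1 of the 4, and its call follows from the design. Besides MAP2K5 these were SOX4 (0.121 and 0.0685 against 2.16 and 2.18), the kinase SGK1 (22.7 and 25.9 against 66.4 and 64.5) and MEF2B, whose exons are shared with a read-through gene. MEF2C, a substrate of ERK5, had 1.14 and 1.13 against 2.12 and 1.88 (log2 difference −0.61, adjusted p = 0.000417), and MEF2D 24.2 and 23.6 against 24.1 and 26.4 (adjusted p = 0.698). MEF2A stood at 23.7 and 22.7 against 16.2 and 17.2 (log2 difference 0.46, adjusted p = 0.0181), and its adjusted p was 0.0528 to 0.0983 when any of the 4 libraries was left out. Of 17 AP-1 and immediate early factors, JUND was 2.73-fold higher and EGR1 3.84-fold lower, 11.8% of the list beside 8.47% higher and 6.12% lower over all genes. FOSL1, the AP-1 factor FRA-1, had 204 and 234 against 425 and 449, at the edge of 2-fold. Of 19 ERK1/2 feedback genes, DUSP8, PHLDA1 and SPRY1 were higher and SPRED3 and SPHK1 (sphingosine kinase, 7.51-fold) lower. They made up 26.3% of that list, beside the same shares over all genes.

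Cell cycle genes were the list with the most lower members. Of 50 tested, 21 (42%) were lower and none was higher, 39 were lower without the fold, and their median log2 difference was −0.90. CDT1, the replication licensing factor, had 6.25 and 6.61 against 31.6 and 33.1. The mitotic kinase AURKB had 44.1 and 50.6 against 138 and 147, and the proliferation marker MKI67 27.1 and 23.7 against 79.8 and 74.3. CENPF and CENPA, proteins of the kinetochore and centromere, were 3.09-fold and 2.86-fold lower. Parental means lay between those of the 2 groups for all 21, which the call rule itself favours. They were nearer ERK5-ko for 6 and nearer MEK5DD for 15. MKI67, at 59.2 and 57.0 in the parental controls, was one of the genes nearer MEK5DD.

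Of 32 genes of glycolysis and the hypoxia response, 7 were higher and 1 lower. These made up 25% of the list, beside 8.47% higher and 6.12% lower over all genes. Besides CA9, ALDOC (aldolase C, 9.45-fold), EGLN3 (a prolyl hydroxylase, 4.95-fold) and PDK1 (3.23-fold) were higher, while ADM (adrenomedullin), itself a hypoxia target, had 3.65 and 4.4 against 53.8 and 55.0 and was 13.5-fold lower. Of 24 NRF2 genes, 5 were higher, led by TXNRD1 (thioredoxin reductase, 885 and 799 against 172 and 177), and SLC7A11 and OSGIN1 were lower. Of 27 ATF4 genes, 3 were lower, DDIT3 (CHOP, 2.9-fold), SLC7A11 (the cystine transporter) and PSAT1, and none was higher. Of 30 cholesterol synthesis genes, 2 were lower, among them MVD (2.22-fold), and none was higher. The ATF4 and cholesterol lists had 11.1% and 6.67% of their genes called, beside 8.47% higher and 6.12% lower over all genes. None of 34 nuclear-encoded respiratory chain subunits and 1 of 48 cytosolic ribosomal protein genes (RPL13, 2.04-fold lower) was called, so these housekeeping lists lay under the 8.47% and 6.12% of all genes.

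Of 42 tested genes that the study names for their expression, 3 were higher (ITGB3, MMP2 and CDH1) and 9 lower. These are ZEB1, VIM, LOX, COL6A3, SOX4, COL8A1, ITGB2, IGFBP3 and LAMA4. The study chose that list on samples of this series, so it is not independent evidence of a direction. A further 15 passed without the fold, among them ITGB4 (313 and 297 against 159 and 163), LAMB3 (117 and 119 against 224 and 231) and COL13A1. The others had an adjusted p of at least 0.05, among them COL4A1, COL4A2, LAMB1, LAMC1, ITGA5, ITGA6 and CXCL8.

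The parental controls lay between both groups for most called genes. Their libraries entered the filter and the shared estimate of the spread, but not the difference itself. Calls pick group means at least 2-fold apart, which itself favours a parental mean between them. The share of parental means between the groups therefore adds no support to the calls. On the log2 scale, with 0 at the MEK5DD mean and 1 at the ERK5-ko mean, the median position of the parental mean was 0.772 over the 1164 higher genes and 0.634 over the 841 lower genes. Of the higher genes, 880 had the parental mean between and nearer ERK5-ko, 162 beyond ERK5-ko, 117 between and nearer MEK5DD and 5 beyond MEK5DD. The same counts for the lower genes were 545, 42, 248 and 6. So 89.5% of the higher and 69.8% of the lower genes had parental cells nearer ERK5-ko or beyond it, the position that COL6A2 and MMP1 show. KISS1, IL11 and MKI67 stand for the lower genes whose parental level was near MEK5DD. The parental cultures were labelled as passages 29 and 30, while the study made its ERK5-ko cells from cells of a later passage than these. The ERK5-ko labels therefore do not count from the same start as the parental ones. Passage and the edit or MEK5DD cannot be told apart in any comparison with the parental cultures.

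**Figure D4:**
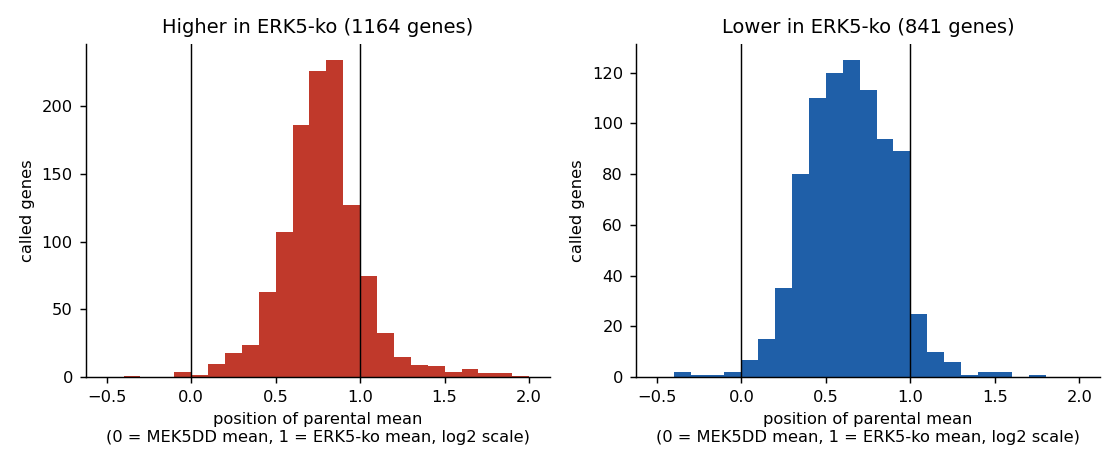
Number of called genes (y) by the position of their parental mean on the log2 scale (x, 0 at the MEK5DD mean, 1 at the ERK5-ko mean, values beyond −0.5 and 2 drawn at the edge), for 1164 higher and 841 lower genes. Both distributions lie mainly between 0 and 1, with medians of 0.772 and 0.634.

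Called genes were spread unevenly over the chromosomes. The share of higher genes ran from 1.77% on chromosome 13 (4 of 226 tested) to 17.5% on chromosome 18 (34 of 194), with 16.7% on chromosome 21 and 15.6% on the X chromosome. Lower genes made up 14.8% on chromosome 14 (67 of 453) and 10.2% on chromosome 16, against 2.83% on chromosome 7. The median log2 difference of all tested genes was 0.30 on chromosome 18 and −0.34 on chromosome 14. On chromosome 18 the median of MEK5DD minus parental was −0.39 and that of ERK5-ko minus parental −0.03. On chromosome 14 these medians were 0.17 and −0.18, and on chromosome 3, where the median ERK5-ko minus MEK5DD difference was −0.27, ERK5-ko minus parental stood at −0.27. Medians of whole chromosomes thus differed between the groups by less than 2-fold.

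The same contrast in Hs-578T was used to see whether these genes differed there too. In that line 800 genes (5.82%) were higher and 544 (3.96%) lower in ERK5-ko than in MEK5DD cells. MAP2K5 itself had 12.5 and 13.8 in ERK5-ko and 21.3 and 23.8 in MEK5DD libraries of Hs-578T, a log2 difference of −0.75 against −3.57 in MDA-MB-231. The difference between the lines was −2.82 (standard error 0.14, adjusted p = 3.5e-08). Of the 1164 genes higher in MDA-MB-231, 45 (3.87%) were higher and 132 (11.3%) lower in Hs-578T. Of the 841 lower in MDA-MB-231, 29 (3.45%) were lower and 189 (22.5%) higher. Seen from Hs-578T, the 45 were 5.62% of its higher genes and the 29 were 5.33% of its lower genes. These shared counts depend on the setting: the 45 and 29 genes became 103 and 69 with a pseudocount of 0.1, and 127 and 91 with voom on the recovered reads. Over all genes, the difference itself was called between the lines for 3920 (28.5%).

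Cell cycle genes made up part of the opposite calls. Of the 21 lower in MDA-MB-231, 19 were higher in Hs-578T, where 38 of the 50 were higher in all, and the difference between the lines was called for 40 of the 50. MKI67 had 22 and 23.3 in ERK5-ko and 3.43 and 7.01 in MEK5DD libraries of Hs-578T, the reverse of its order in MDA-MB-231 (difference between the lines −3.68, standard error 0.45, adjusted p = 2.94e-05). Among genes called the same way in both lines, NELL2 (a secreted EGF-like protein) had 17.5 and 14.5 against 0.625 and 0.474 in MDA-MB-231 and 5.04 and 6.26 against 0.0619 and 0.0611 in Hs-578T. MORC4 (a chromatin ATPase) and CERS4 (ceramide synthase 4) were likewise higher in both. CHRDL1 (a BMP antagonist) and TENM4 were lower in both lines.

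**Figure D5:**
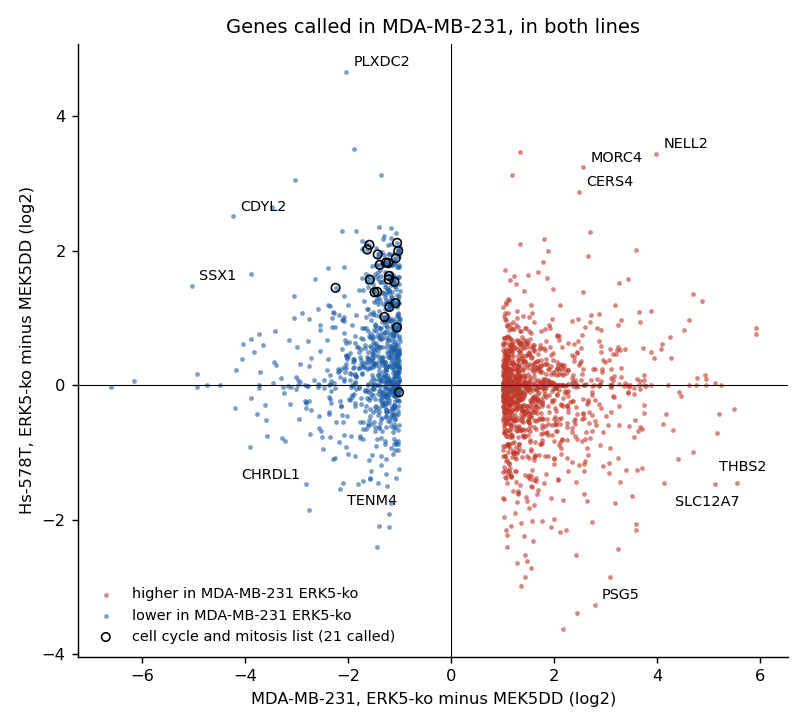
Log2 difference ERK5-ko minus MEK5DD of the 2005 genes called in MDA-MB-231 (x), and of the same genes in Hs-578T (y), with the 21 called cell cycle genes circled. Of the 21 circled genes, 19 were called lower in MDA-MB-231 ERK5-ko and higher in Hs-578T ERK5-ko and lie upper left.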

How the data were processed

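RNA of 12 cell line cultures was sequenced after a stranded mRNA library kit, and groups were taken from the sample titles. The authors deposited RPKM values, 1 table for the series, and how they assigned reads to genes and strands is not given in the sources used here. The submitters' processing notes name bcl2fastq, Trimmomatic 0.32, TopHat2 2.1.1, R 3.3.1, DESeq2 1.12.4 and GRCh38. The RPKM values of all 32152 listed genes were whole multiples of 1 read within 0.01 reads, while with 1 total altered 9 of 500 genes were, so reads were recovered and used for library totals, for the floor of 3 reads and for an alternative fit. Totals of the 12 libraries were 20248162 to 27791195 reads, and limits set by reads cover counting error only.

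The fit took in protein-coding genes that reached 0.5 RPKM in 2 or more libraries (13737), on log2(RPKM + 0.5), with limma 3.58.1 (R 4.3.3), with a mean for each of 6 groups over the 12 libraries, 6 residual degrees of freedom, a mean-variance trend and Benjamini-Hochberg adjustment over all genes. Fold changes on this scale understate the change of low genes, so folds in the text are ratios of mean RPKM. An exact permutation test of 2 libraries against 2 cannot go below p = 0.333 (two-sided). The fit was tested on simulated data. Same-numbered libraries deviated together in all 6 pairs of groups of a line (r = 0.107 to 0.541, 0.163 for the groups compared), so numbers were taken to pair the libraries and a replicate block was fitted as an alternative.

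The comparison and the 40 gene lists were chosen with earlier results of these data known. Named genes were 12 called genes from each end of the log2 differences (mean RPKM 1 or more, no overlap between replicates of the groups). Also named were the 5 most abundant called genes each way and up to 5 called members of each list by log2 difference. Genes that define a list or that the study names were added, with the 3 genes each way with the strongest shared or opposite calls in both lines. BMP2, CD24, HEY1, HEYL, IL7, MMP14, NRG2 and the genes given only as list members were named after their values were seen. Exon overlaps came from GENCODE 29 (98.2% of identifiers matched), and not every overlap is marked in the text. CA9, for example, shares 643 of its 1670 exon bases with ARHGEF39 on the other strand. Alternatives changed the pseudocount, filter, scaling, libraries in the fit, block, length and GC correction, call rule and each replicate. Python 3.11.15, numpy 2.4.6, pandas 2.3.3 and matplotlib 3.10.9 were used. Some genes that the rule names are not reported here.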

Additional observations from a re-analysis of the deposited data

Results flagged for a closer look

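The difference between ERK5-ko and MEK5DD cells was itself different between the lines, by the interaction term of the limma fit, for 3920 genes. The 6 genes called in opposite directions with the largest such terms are given here. THBS2 differed by 6.999 between the lines on the log2 scale, with 0.628 and 0.57 in ERK5-ko and 2.49 and 2.56 in MEK5DD libraries of Hs-578T. SLC12A7 differed by 6.592, with 0.983 and 0.857 against 3.26 and 3.62 in Hs-578T. PSG5, a pregnancy-specific glycoprotein whose family members are close copies, so that its reads are uncertain, differed by 6.052, with 3.84 and 3.18 against 0.101 and 0.0584 in MDA-MB-231 and 4.11 in both against 54.1 and 35.5 in Hs-578T. In the other direction, CDYL2 differed by −6.738, with 2.06 and 2.95 against 0.0215 and 0.0213 in Hs-578T. PLXDC2 differed by −6.706, with 0.0232 and 0.00701 against 1.67 and 1.57 in MDA-MB-231 and 12.2 and 12.4 against 0 and 0.00852 in Hs-578T. SSX1 differed by −6.52, with 10.4 and 11.0401 against 3.68 and 3.36 in Hs-578T. Groups did not overlap in either line for any of the 6, which were chosen for these differences.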

How the results depend on the processing

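The replicate block kept the counts of 1164 higher and 841 lower genes and ended none of the 2005 calls. Other settings kept 82.4% (pseudocount 1) to 100% of the calls that could be tested. Without a fold threshold the counts were 3717 higher and 3835 lower, 751 and 492 shared by both lines, and 8430 different between the lines. With folds above 1.5 or below 0.5 they were 2401 higher and 245 shared higher. The 45 shared higher genes became 103 with a pseudocount of 0.1 and 127 with voom on recovered reads, and the 29 shared lower genes became 69, 91 and, with a pseudocount of 1, 16. Leaving out a replicate gave 1142 to 1197 higher, 851 to 882 lower, 37 to 59 shared higher, 26 to 31 shared lower and 3731 to 4331 different genes. Uncalled genes near 0 changed sign. ITGA1 stood at −0.04314 with quantile normalization and ranged from −0.02928 to 0.08485 without a replicate, COL4A6 from −0.005361 to 0.03657, ITGA11 from −0.2192 to 0.02528 and LAMB1 from −0.1377 to 0.1814. With length and GC correction, alone or with the replicate block, COL4A6 was −0.05745, COL9A2 −0.03315 and COL4A2 −0.03741. The cause was not tested. Of the values of named genes under alternatives, 3628 kept their direction and side of the threshold, 20 lost and 20 gained significance. Groups of 2 passages limit precision, and genes at or under 3 reads have bounds in place of folds.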

Other observations

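Further called members of the lists, picked after their values were seen, were for the most part expressed at low levels. IL1A and IL1B, the interleukin-1 ligands, had 0.795 and 0.833 against 0.0982 and 0.102, and 1.06 and 1.32 against 0.0947 and 0.123, in ERK5-ko against MEK5DD libraries. CSF2, the granulocyte-macrophage growth factor, had 3.28 and 4.5 against 0.796 and 1.24, with 4.08 and 4.18 in the parental controls. FGFBP1, which releases FGF from the matrix, had 1.54 in both against 0.0613 and 0.106. On the lower side, FBN1, the microfibril protein fibrillin-1, had 1.67 and 1.22 against 7.6 and 7.81, and SPARC, a collagen-binding matricellular protein, 0.398 and 0.16 against 2.11 and 3.09. SEMA5A, a transmembrane semaphorin, had 0.0514 and 0.0348 against 0.988 and 0.951, and parental controls held 1.02 and 0.793. KRT8, the partner of KRT18, had 1142 and 1146 against 595 and 630 and passed the test short of 2-fold.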
